A study of Homo sapiens with 6 samples.

Results

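The complement genes described here are 9 of the 58735 genes in the deposited table: the component C3, the proteases CFB, C1R and C1S, the soluble regulators CFI and SERPING1, and the membrane inhibitors CD46, CD55 and CD59. They were taken by gene symbol from the count table, as complement components and inhibitors, and all 9 were found. RNA-seq had been performed on parent MDA-MB-231 cells, a human triple-negative breast cancer line labelled as wild type (3 libraries), and on Adriamycin-resistant (ADRr) MDA-MB-231 cells (3 libraries). Adriamycin (ADR, doxorubicin) is an anthracycline that damages DNA. Per the study's methods, ADRr cells arose from parent cells by stepwise exposure to rising ADR and single clones were then picked after limiting dilution, so the group may stand for a single clone, and the dose, if any, at harvest is not given in the sources used here. Both lines were grown in DMEM with serum. The labels do not say whether the libraries of a group came from separate cultures, and the series record mentions time points that no label names, so the p-values measure the spread between these libraries, which may be technical.

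Complement is a cascade of blood proteins that marks and lyses cells. The classical pathway starts with C1q, which carries the proteases C1r and C1s, and the alternative pathway amplifies the cleavage of C3 with factor B. Cells protect themselves with inhibitors on their surface: CD46 helps factor I to cleave C3b and C4b, CD55 speeds the decay of the C3 convertases, and CD59 blocks the last step of pore assembly. The liver makes most complement in plasma, but epithelial and tumour cells also transcribe C3, CFB, C1R and C1S, and interferon-γ, IL-6, IL-1 and TNF are known to raise several of these genes through STAT, C/EBP, NF-κB and IRF factors.

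In ADRr cells, C3, CFB, C1R and CD46 fell, CD55 and CD59 rose, C1S did not pass the test, and CFI and SERPING1 had too few counts to be tested. Among the 7 tested members, 2 were called higher and 4 lower, with a median log2 fold change of -0.59. Of all 15242 tested genes, calls of higher expression made up 29.2% and calls of lower expression 29.6%, with a median of -0.0061. Changes of this kind were thus common in the table. Every ADRr library lay beyond every parent library for 6 of the 7 tested members, as it did for 69.2% of all tested genes. Calls rest on edgeR's quasi-likelihood test, with p-values adjusted by Benjamini-Hochberg over all tested genes, and require both an adjusted p that does not exceed 0.05 and a change of 1.2-fold or more up or down. Every adjusted p below comes from that fit unless another is named.

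The libraries held 15983985 to 18272314 counts, and 3 counts, the most that a count of 0 allows, correspond to 0.164 to 0.188 CPM (counts relative to the library total; counting error only). No pair of libraries agreed within sampling noise: the chi-square per degree of freedom was 2.60 to 8.51 within groups and 123 to 137 between them. The markers of MDA-MB-231 cells were present, with 74700 to 76400 summed normalized counts in parent and 77900 to 78000 in ADRr cells, and of these 6 markers 2 were called higher (EGFR 1.39, CD44 0.80) and 4 lower, among them KRT8 (-2.0) and VIM (-0.56). Of 5 markers listed as absent or low in this line, the hormone receptor genes ESR1 and PGR had at most 1 count in any library, but ERBB2 (1785 to 2303 counts in parent libraries, -1.24), CDH1 (-1.07) and EPCAM (1.1) were detected, and the sum of the 5 was 2380 to 2730 in parent and 1400 to 1520 in ADRr libraries. No hepatocyte marker was tested, with ALB at 0 in all libraries and a summed level of at most 9.73. The 8 leukocyte markers summed to 86.5 to 131 in parent and 85.9 to 108 in ADRr libraries, nearly all from CD14 (78 to 133 counts, -0.16, not called), while PTPRC had at most 2 counts.

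Short stretches from the promoters of CFB, C1R and CD59 are shown first, because they hold letters that fit binding motifs of factors known to act on complement genes. RefSeq windows (GRCh38.p14) running from 250 bases before a transcript start to 50 after it were held for 6 of the 9 members, 11 windows in all. C3, C1S and SERPING1 had none. They were searched on both strands for a STAT site (TTCNNNGAA), the core of an interferon-stimulated response element or ISRE (GAAA, any 2 bases, GAAA), a C/EBP site (TTGCNNAA) and an NF-κB site. Each line gives 30 bases, 5′ to 3′ on the gene's strand, with the match in capitals. The matches are descriptions of letters, not of bound factors.

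CFB, ISRE core: acttctgcagTTTCTGTTTCcttgactggc
CFB, NF-κB: gcagctcagcGGGGCCCTCCcgcttggatg
CFB, STAT: cgcttggatgTTCCGGGAAagtgatgtggg
C1R, C/EBP: agatcttttgtTTATGCAAatagttcattc
C1R, C/EBP in a second window: cccagacgctcTTGCTGAAcctgtgggagc
C1R, STAT in that window: gccagtcctaTTCCTGGAAggggaggggag
CD59, STAT: ccacccggccTTCTCAGAAcctgggccagg

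The CFB lines lie on the plus strand at chr6:31945945-31945974, chr6:31945973-31946002 and chr6:31945993-31946022, with matches that begin 140, 112 and 92 bases before the start; GENCODE 29 places them in the 5′ UTR of a longer CFB transcript. The C1R lines lie on the minus strand. The first, at chr12:7092533-7092562, begins its match 106 bases before the start and lies in the 5′ UTR of a longer C1R transcript. The other two, at chr12:7092042-7092071 and chr12:7091960-7091989, lie 167 and 86 bases before a start further inside the gene, in an exon of a C1R transcript without a coding sequence there. The CD59 line, at chr11:33736588-33736617 on the minus strand, begins its match 128 bases before the start and lies in no annotated gene. The windows of CD55, CD46 and CFI held none of the 4 motifs. Of all 35116 windows of the same length, 7.66% held the STAT motif, 3.57% the ISRE core, 11.3% the NF-κB motif and 10.5% the C/EBP motif. A further CD59 window, inside an intron, held 2 C/EBP matches that are not shown. STAT matches were thus found in windows of CFB and C1R, which fell, and of CD59, which rose, and C/EBP matches in windows of C1R and CD59.

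C3 (ENSG00000125730, chr19:6677704-6730562, minus strand, GRCh38) is the protein on which all complement pathways converge. Its normalized counts (counts scaled by library size and edgeR's TMM factor) were 16984, 15693 and 16855 in parent replicates 1 to 3. In ADRr replicates 1 to 3 they were 10518, 10973 and 10836. The groups did not overlap, and the lowest parent library lay well above the highest ADRr library. The mean went from 16510.5 ± 711 (SD, n = 3) to 10776 ± 233 (SD, n = 3), a log2 fold change of -0.62 (SE 0.046, 95% confidence interval -0.71 to -0.52, adjusted p = 6.9e-11). C3 fell by 34.7%. On the per-length FPKM scale it was the highest of the 9 members in both groups, at rank 242 to 268 of 19951 protein-coding genes in parent libraries and 450 to 472 in ADRr libraries. No other gene shares its exons.

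CFB (ENSG00000243649, chr6:31945650-31952084, plus strand) encodes factor B, the protease of the alternative pathway convertase. Its normalized counts were 283, 223 and 321 in parent cells and 171, 202 and 178 in ADRr cells. Parent replicate 2 lay closest to the ADRr libraries, and the groups did not overlap. The log2 fold change was -0.59 (SE 0.13, 95% confidence interval -0.86 to -0.32, adjusted p = 3.6e-04), from a mean of 276 ± 49.7 to 184 ± 16.1 (SD, n = 3 each). Of its 4997 exon bases, 45.5% are also annotated to other genes on the same strand, 2249 of them to the readthrough gene AL645922.1, which spans C2 and CFB and had 0 counts in all libraries. How reads in shared exons were assigned is not given in the sources used here, so the FPKM level of CFB is uncertain.

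C1R (ENSG00000159403, chr12:7080199-7092607, minus strand) and C1S (ENSG00000182326, chr12:6988259-7071032, plus strand) encode the proteases that C1q carries, and their genes lie tail to tail, 9.17 kb apart. C1R had 361, 369 and 469 normalized counts in parent cells and 238, 234 and 230 in ADRr cells. It fell from 400 ± 60.4 to 234 ± 4.09 (SD, n = 3 each), a log2 fold change of -0.77 (SE 0.11, 95% confidence interval -1.0 to -0.55, adjusted p = 1.6e-06). The ADRr libraries were tightly grouped, whereas parent replicate 3 stood above the other two.

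C1S had 273, 283 and 228 normalized counts in parent cells and 197, 217 and 246 in ADRr cells. The groups overlapped, since parent replicate 3 lay below ADRr replicate 3. The log2 fold change of -0.25 (SE 0.12, 95% confidence interval -0.49 to -0.0020) had an adjusted p of 0.071 and was not called. It was called lower without parent replicate 3 (-0.34, adjusted p = 0.014) and without ADRr replicate 3 (-0.34, adjusted p = 0.034) by the same edgeR test, and its adjusted p ranged from 0.014 to 0.30 over all alternative settings. C1R shares 672 exon bases, 11.4% of its exons, with C1RL on the same strand, and C1S shares 229, or 3.54%, with EMG1. The difference between the changes of C1R and C1S was not tested.

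The soluble regulators among the members were near the floor of detection. CFI (ENSG00000205403, chr4:109740694-109802179, minus strand), which encodes the factor I protease that cleaves C3b and C4b, had 3 counts in parent replicate 2 and 0 in the other 5 libraries. SERPING1 (ENSG00000149131, chr11:57597387-57614853, plus strand), which encodes the C1 inhibitor, had 5, 2 and 15 counts in parent cells and 5, 2 and 7 in ADRr cells. CFI shares 32% of its exon bases with AC126283.2, which had 0 counts in all libraries. CFI and SERPING1 were removed by the filter on low counts. With no filter, SERPING1 had a log2 fold change of -0.70 (SE 0.71, edgeR adjusted p = 0.51), and no fold is given for CFI, which was at or under 3 counts in all libraries. A difference in these genes was not detectable at this depth.

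CD46 (ENSG00000117335, chr1:207752057-207795513, plus strand), the cofactor for cleavage of C3b and C4b, had the largest change among the tested members. It had 4348, 4755 and 4141 normalized counts in parent cells and 2256, 2209 and 2234 in ADRr cells. The ADRr values lay within a narrow range far below those of parent cells. The mean went from 4415 ± 312 to 2233 ± 23.5 (SD, n = 3 each), a log2 fold change of -0.98 (SE 0.056, 95% confidence interval -1.10 to -0.87, adjusted p = 5.6e-13), and CD46 fell by 49.4%.

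CD55 (ENSG00000196352, chr1:207321376-207386804, plus strand), the decay-accelerating factor, had 5134, 5367 and 5051 normalized counts in parent cells and 6672, 6394 and 6223 in ADRr cells. All ADRr libraries lay above all parent libraries. The log2 fold change was 0.31 (SE 0.049, 95% confidence interval 0.21 to 0.41, adjusted p = 7.6e-06), a 1.24-fold increase that lies close to the fold threshold and was not called when edgeR's glmTreat tested for a change beyond that threshold.

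CD59 (ENSG00000085063, chr11:33703010-33736491, minus strand), the inhibitor of pore assembly also called protectin, had 3619, 3755 and 3342 normalized counts in parent cells and 5076, 4970 and 4758 in ADRr cells. The groups were well apart. The log2 fold change was 0.47 (SE 0.053, 95% confidence interval 0.36 to 0.58, adjusted p = 7.4e-08), a 1.38-fold increase. CD59 shares 6.07% of its exon bases with AL049629.2, which had 1 to 10 counts in the libraries. Neither CD46 nor CD55 shares exon bases with another gene.

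**Figure D1:**
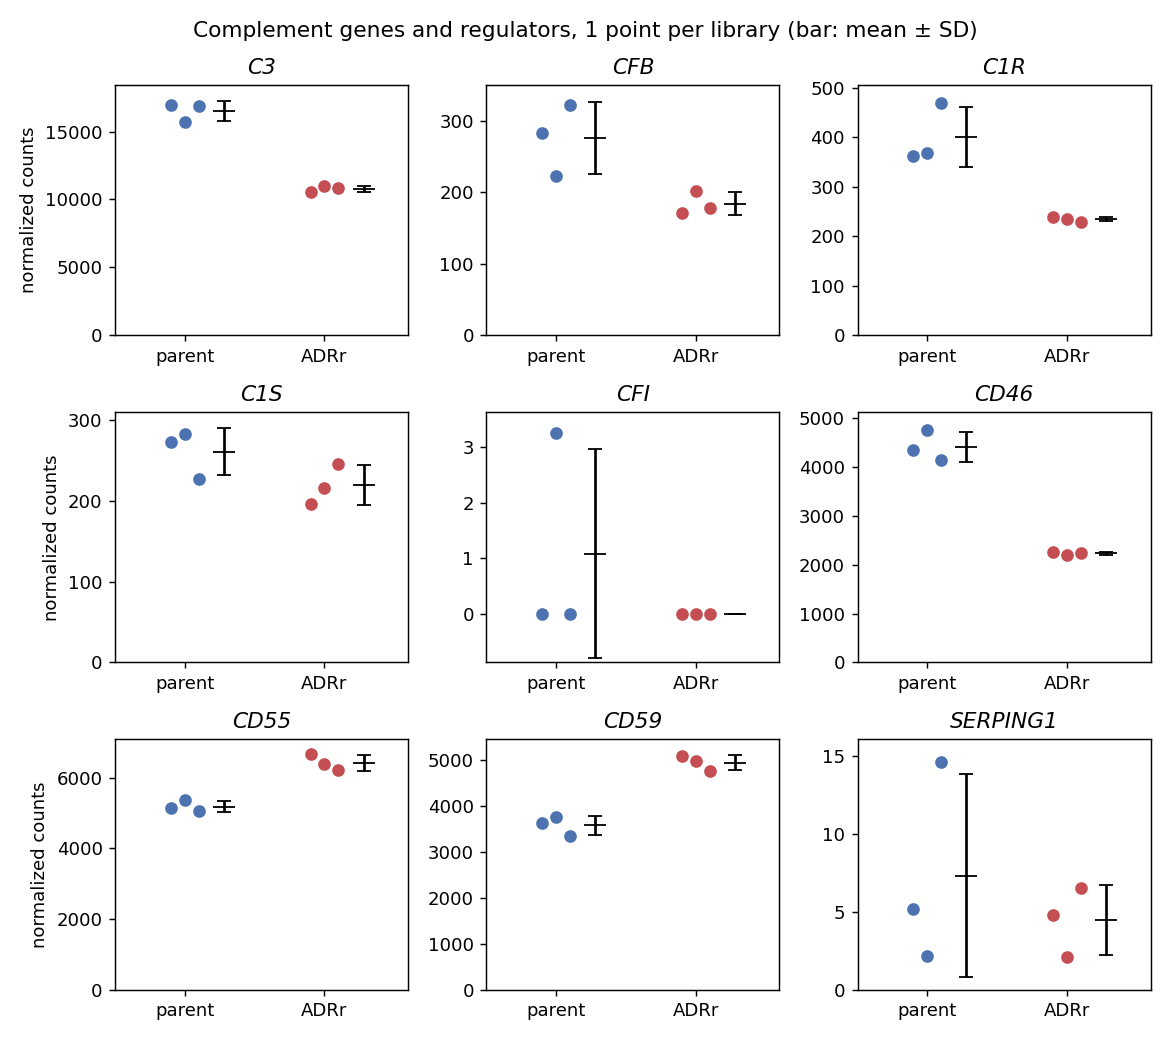
Normalized counts (vertical axis, own scale in each panel) of the 9 members in 3 parent (blue) and 3 ADRr (red) libraries, with the group mean ± SD in black. C3, CFB, C1R and CD46 are lower in every ADRr library than in every parent library, CD55 and CD59 are higher, and C1S, CFI and SERPING1 overlap.

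Levels can be compared between genes on the FPKM scale, which divides counts by exon length and library size. In parent cells the means were 113 ± 4.99 for C3, 50.2 ± 1.6 for CD55, 28.98 ± 2.06 for CD46 and 19.7 ± 1.19 for CD59 (FPKM, SD, n = 3). C1R at 3.88 ± 0.58, CFB at 3.15 ± 0.57 and C1S at 2.31 ± 0.26 followed, and SERPING1 at 0.116 and CFI at 0.013 came last. In that order C1R overlapped with CFB and SERPING1 with CFI, while every other neighbour was separated in all libraries. In ADRr cells the order was C3 at 74.2 ± 1.54, CD55 at 62.4 ± 2.16, CD59 at 27.3 ± 0.85 and CD46 at 14.7 ± 0.18 (FPKM, SD, n = 3), so that CD59 and CD46 had changed places. C1R at 2.28 ± 0.037, CFB at 2.11 ± 0.18 and C1S at 1.95 ± 0.22 overlapped with their neighbours in that order.

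CD46 moved opposite to the other membrane inhibitors, and their sum did not separate the groups. The summed FPKM of CD46, CD55 and CD59 was 98.5, 104 and 94.3 in parent libraries and 108, 104 and 102 in ADRr libraries, and the groups overlapped. CD46 made up 29.3 ± 0.68% of this sum in parent and 14.1 ± 0.37% in ADRr cells (SD, n = 3). The share of CD55 went from 50.8 ± 0.88% to 59.8 ± 0.32%, and that of CD59 from 19.9 ± 0.41% to 26.2 ± 0.23% (SD, n = 3). The FPKM ratio of CD55 to CD46 was 1.66 to 1.80 in parent libraries and 4.11 to 4.36 in ADRr libraries. The ratio of C3 to the summed inhibitors was 1.15 ± 0.099 and 0.711 ± 0.034, again without overlap. An exact permutation test of 3 against 3 libraries cannot give a two-sided p below 0.1, so these ratios are given as descriptions.

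**Figure D2:**
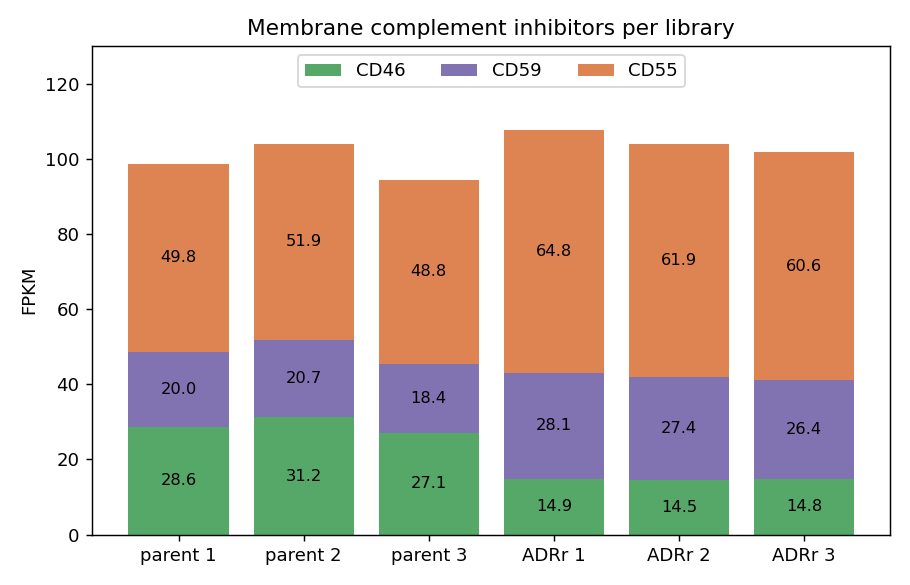
FPKM (vertical axis, from 0) of CD46, CD59 and CD55, stacked, in each of the 6 libraries, with each value printed in its bar. The totals overlap between the groups, the CD46 segment is 27.1 to 31.2 in parent and 14.5 to 14.9 in ADRr libraries, and the other segments are larger in all ADRr libraries.

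The rest of the pathway was read from a list of 57 complement genes, which includes the 9 members. Of these, 23 were tested, 9 were called higher and 7 lower, with a median log2 fold change of -0.25. Without the members, 16 of 48 were tested, 7 were called higher and 3 lower, with a median of 0.091. The 7 tested members reached the count minimum of the filter in every library, as did 18 of the 23 tested list genes, of which 8 were called higher and 5 lower. C2, C4B, C8G, C3AR1 and ITGAX did not. These shares stand beside the 29.2% and 29.6% of all tested genes given above.

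In the classical pathway, 1 of 6 tested genes was called higher and 3 lower. C2, the protease of the classical convertase and the gene next to CFB, had 187, 181 and 204 counts in parent and 9, 8 and 14 in ADRr libraries, a log2 fold change of -4.26 (SE 0.22, adjusted p = 7.9e-14). This was the largest decrease on the list. C2 also shares exon bases with AL645922.1, 1820 of its 5536. C1RL, a relative of C1R, rose by 0.95 on the log2 scale (adjusted p = 6.0e-05), opposite to C1R with which it shares exon bases. C4A (-0.47) was not called, and C4B (-1.26, adjusted p = 0.041) was called lower on 2 to 18 counts per library. C2 reached the count minimum of the filter in 3 parent libraries and 1 ADRr library, and C4B in 3 and 0. Both thus passed the filter through the parent libraries, so their calls as lower are no independent count. C4A and C4B are near-identical copies, so their counts are uncertain. The 3 genes of C1q, the recognition protein, had 0 counts in all libraries.

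Of the lectin pathway, which recognises sugars, MASP2 was the only tested gene (-0.35, not called). In the alternative pathway, CFP, the gene of properdin, which stabilises the convertase, had 98, 110 and 116 counts in parent and 921, 900 and 809 in ADRr libraries. It rose 7.72-fold, with a log2 fold change of 2.95 (SE 0.11, adjusted p = 2.2e-16), while C3 and CFB fell. CFD, the protease that activates factor B, had a log2 fold change of -0.088 (not called). Of the terminal pathway, which forms the pore, C5 was called higher (0.36, adjusted p = 0.024) and C8G was not called (0.30). C6, C7, C8A and C8B had 0 counts in all libraries, and C9 had a single count.

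Among the soluble regulators, C4BPB, the beta chain of C4b-binding protein, was called lower (-0.67, adjusted p = 7.2e-09), with 1232 to 1452 counts in parent and 847 to 901 in ADRr libraries. C4BPA, the alpha chain, had at most 3 counts. CLU, the gene of clusterin, an inhibitor of pore assembly, was called higher (0.27, adjusted p = 3.6e-04) and VTN, the gene of vitronectin, was not called (-0.69). SUSD4, a membrane regulator, was called higher (0.78, adjusted p = 0.023).

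Among the receptors, ITGB2, the beta chain shared by complement receptors 3 and 4, was called higher (0.71, adjusted p = 2.3e-07). ITGB2 shares 303 exon bases, 4.46% of its exons, with ITGB2-AS1 on the opposite strand. ITGB2-AS1 had 85, 54 and 77 counts in parent and 153, 143 and 129 in ADRr libraries, and the strand setting of the counts is not known. ITGAX, the alpha chain of receptor 4, had 0, 1 and 2 counts in parent and 56, 28 and 59 in ADRr libraries. It passed the filter on low counts only through the ADRr libraries, so its call as higher is no independent count. The ratio of its summed counts, scaled by library size and TMM factor, was 45.3 (95% Clopper-Pearson interval 15.2 to 222, counting error only). ITGAM, the alpha chain of receptor 3, had 0 counts in all parent libraries and 6, 6 and 7 in ADRr libraries, at least 2.0-fold higher against a floor of 3 counts in each library. C3AR1, the receptor of C3a, was not called (-0.79). Of the leukocyte markers, CD53 had 0 counts in parent and 4, 1 and 3 in ADRr libraries, CD14 had 78 to 133 counts in all libraries, and PTPRC had at most 2; their part in the changes of the receptor genes was not tested.

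**Figure D3:**
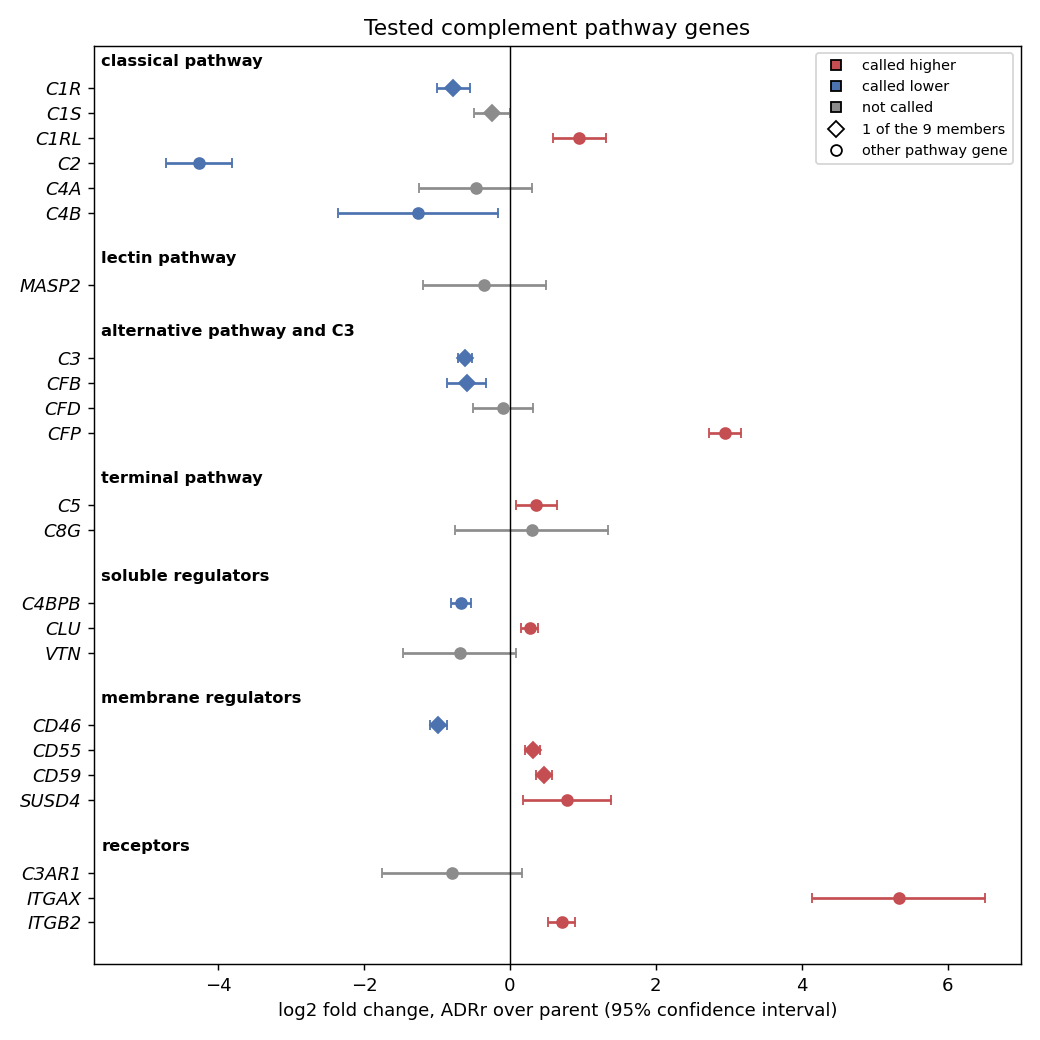
Log2 fold change of ADRr over parent cells (horizontal axis, bars are 95% confidence intervals from edgeR) for the 23 tested genes of the complement list, grouped by role; diamonds mark members, circles other genes. CFP at 2.95 and C2 at -4.26 lie far outside the range of the members, -0.98 to 0.47, and the value of ITGAX rests on at most 2 counts in a parent library.

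A second list held 21 cytokines, receptors and transcription factors known to raise complement genes in many cells. Of the 18 tested, 12 were called higher and 2 lower, with a median log2 fold change of 0.62. Among all tested genes, 29.2% were called higher and 29.6% lower, with a median of -0.0061. The largest increases on the list were those of IL1A (5.23), IL6R (4.0) and IL1B (3.78). IL6R had 13, 5 and 13 counts in parent and 181, 167 and 179 in ADRr libraries, so its value rests on few parent counts. Parent replicate 2 lay under the count minimum of the filter. IL6R thus passed the filter through the ADRr libraries, so its call as higher is no independent count. When at least 10 counts were required in every library, which leaves out IL6R, 11 genes of the list were called higher. The decreases were those of CEBPD (-0.90, adjusted p = 1.5e-06), a C/EBP factor, and TNFRSF1A (-0.63, adjusted p = 4.7e-09), the main TNF receptor. TNF itself had 1 to 14 counts per library and was not tested, as were IFNG, at 0 in all libraries, and OSM. C3, CFB and C1R were thus lower in the same libraries in which most tested genes of this list were higher. No relation between the lists was tested.

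Fibroblasts also make C3, C1R and C1S, and 4 of 6 fibroblast markers were tested. All 4 were called lower, beside 29.6% of all tested genes. The summed normalized counts of the 6 markers were 2780 to 2830 in parent and 488 to 546 in ADRr libraries. COL1A2, a collagen chain, had 1060 to 1192 counts in parent and 4 to 11 in ADRr libraries. It passed the filter on low counts through the parent libraries, so its call as lower is no independent count. DCN was at 0 in all libraries and COL3A1 had at most 6 counts. Of the 4 endothelial markers, 2 were tested. KDR was called higher (1.07, adjusted p = 2.9e-05) and PECAM1 was not called (0.21), beside 29.2% of all tested genes called higher. VWF had 0 counts in parent and 2, 7 and 4 in ADRr libraries, and CDH5 had at most 2 counts. The summed normalized counts of the 4 markers were 54.1 to 84.7 in parent and 145 to 161 in ADRr libraries. The labels name a single line, MDA-MB-231, in both groups. In bulk RNA, fewer expressing cells and less RNA per cell cannot be told apart. The part of these markers in the changes of C3, CFB and C1R was not tested.

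CD55 and CD46 lie in the regulators of complement activation cluster on chromosome 1, which also holds C4BPB, and the start of CD46 is 431 kb from that of CD55. The nearest tested neighbour of CD55 before its start was C4BPB, and the nearest after it was CD46. Within 1000 kb of the start of CD55, 17 genes were tested. Of the 3 complement genes among them, CD55 rose whereas C4BPB (-0.67) and CD46 (-0.98) fell. On the far side of CD46, MIR29B2CHG was called lower (-0.85).

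Tested genes whose intervals overlap a member were AC008760.2 (-0.65, called lower) and GPR108 (0.64, called higher) at C3, C2 (-4.26, called lower) at CFB, C1RL (0.95, called higher) at C1R, and EMG1 (0.52, called higher) and LPCAT3 (0.058, not called) at C1S. The nearest tested genes without overlap were TNFSF9 (1.34, called higher) and TRIP10 (-0.14, not called) for C3, ZBTB12 (-1.25, called lower) and NELFE (0.11, not called) for CFB, and C11orf91 (1.18, called higher) and FBXO3 (-0.64, called lower) for CD59. C1R and C1S were each other's neighbour on one side, with C1RL-AS1 (-0.017, not called) and PHB2 (-0.024, not called) on the outer sides. Around CFI these were PLA2G12A (-0.26, not called) and GAR1 (0.41, called higher), and around SERPING1 they were UBE2L6 (0.074, not called) and CLP1 (-0.31, called lower). The median log2 fold change of the 25 tested genes on each side of a member ranged from -0.39 around CFB to 0.085 around CD59. Around CFB, 23 of these 50 genes were called lower and 11 higher. Around the other members, 12 to 20 were called lower and 11 to 19 higher. Of all tested genes, 29.6% were called lower and 29.2% higher.

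**Figure D4:**
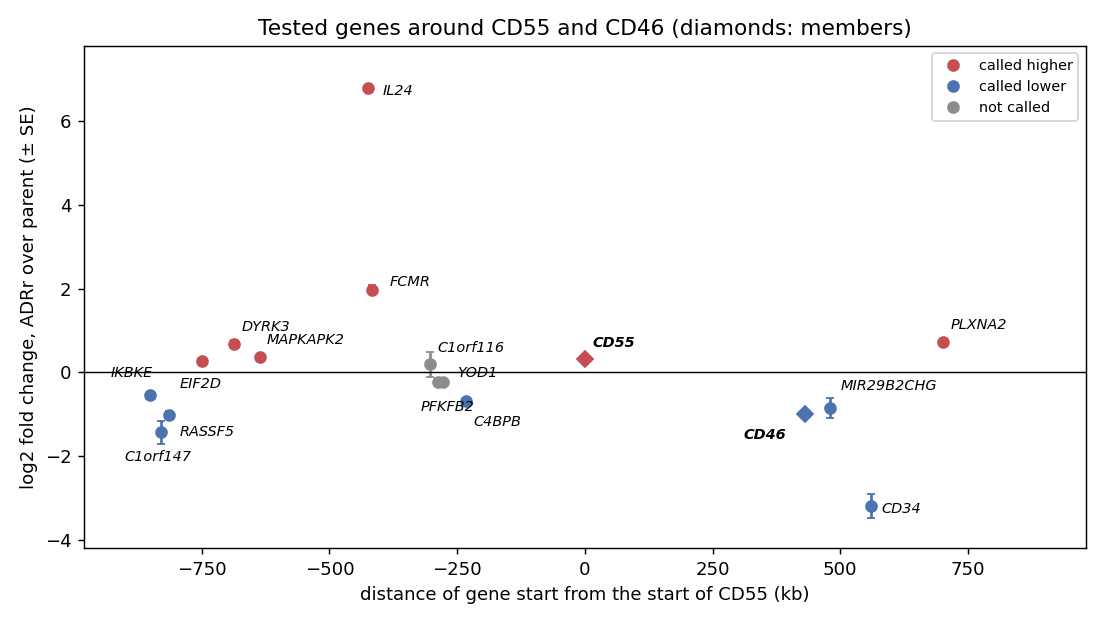
Log2 fold change (± SE) of the 17 tested genes within 1000 kb of the start of CD55 against the distance of their starts (kb); diamonds mark CD55 and CD46. CD55 at 0.31 lies between C4BPB at -0.67 and CD46 at -0.98, and values in this window run from -3.19 to 6.80.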

How the data were processed

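The authors deposited raw counts (whole numbers per gene, not normalized) and FPKM derived from these counts. Per the study's methods, polyadenylated RNA was sequenced as paired-end reads. The submitters' processing notes name fastp, HISAT2 2.0.5, featureCounts 1.5.0-p3, DESeq2 1.20.0 and GRCh38; the strand setting is not given in the sources used here. All 58735 gene identifiers and exon lengths equal those of GENCODE 29. Tests on the counts used edgeR 4.0.16 in R 4.3.3 (filterByExpr, TMM, quasi-likelihood test, Benjamini-Hochberg adjustment over 15242 genes). The other 43493 genes were not tested. Tests with limma 3.58.1 were run only on the FPKM, as alternatives. All libraries of the 2 groups entered the fit with no block. The common coefficient of biological variation (0.0598) corresponded to a median SE of 0.096 for a log2 fold change. Scripts were tested on simulated data. The study's threshold is written as a log2 of 1.2, read here as a fold change of 1.2, with 1.2 on the log2 scale as an alternative.

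The members, the 3 lists (complement pathway, inducers, cell type markers) and the tests were chosen with earlier results of these data known. Named were every member, every tested complement gene, the 3 largest increases and 2 largest decreases among called inducers, defining markers, and genes next to or overlapping a member. Untested complement genes, further marker genes, and members of the window around CD55 shown in its plot, were named after their values were seen. A listed gene is not reported here. The alternatives were other size factors, DESeq2 1.42.0, other filters, protein-coding genes only, limma-trend on log2(FPKM + 1) or log2(FPKM + 0.1), a replicate block, each library left out, and other call rules.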

Additional observations from a re-analysis of the deposited data

How the results depend on the processing

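Of 112 alternative values of the members' log2 fold changes, 110 kept their direction and their side of the threshold. The exceptions were C1S without parent replicate 3 and without ADRr replicate 3, as given above, and C1S ranged from -0.34 to -0.16 over the fits that left out a library. CFB ranged from -0.73 to -0.41 over all alternatives, with an adjusted p of up to 0.045, and C1R from -0.85 to -0.57. With an absolute log2 fold change of 1.2 as the threshold, edgeR called 0 members higher and 0 lower, although 7 of 7 tested members had an unadjusted p under 0.05 (DESeq2 also called 0); it called 2 complement genes higher and 2 lower, and 4 inducers higher and 0 lower. Of the complement genes called at that threshold, C2, C4B and ITGAX passed the filter on low counts through 1 group only. The same holds for IL6R among the inducers. With glmTreat, 1 member and 5 complement genes were called higher, and limma-trend on log2(FPKM + 1) called 5 complement genes higher. The log2 threshold of 1.2 and glmTreat are stricter by construction. The limma-trend fit left out ITGAX and SUSD4, whose mean FPKM over all libraries lay under its filter of 0.5. Without that filter it called 6 complement genes higher. Adding 1 to the FPKM also shrinks log2 fold changes. Same-numbered libraries did not deviate together (r = 0.0073, -0.021 and -0.046). Whether the numbers pair libraries by culture or day cannot be told from these values. With a replicate block, 4406 genes were called higher and 4464 lower (4451 and 4507 without it), and C3 was at -0.61 and CD46 at -0.98. At these depths genes with few counts, such as CFI and SERPING1, could not be compared.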
